A study of Homo sapiens with 18 samples.

Results

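Transcripts of 37 genes of the hypoxia and glycolysis programme, out of 58735 genes counted, were followed in human podocytes grown on 2 surface topographies and exposed to inflammation. The members were taken by gene symbol. These comprise 17 glycolytic enzymes and regulators of phosphofructokinase, 3 glucose or lactate transporters, 13 other targets of the hypoxia-inducible factors (HIF), 2 oxygen sensors (EGLN1 and EGLN3) and the 2 HIF alpha subunits (HIF1A and EPAS1). The glycolytic enzymes and the other HIF targets were read apart.

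The line, PODO/TERT256, consists of human podocytes made immortal by telomerase. All groups grew on hemispheres, with a smooth surface in 3 of them and a fractal one in the other 3. On each surface cells were untreated, received TNF-α together with IL-6, or were exposed to THP-1-derived macrophages (THP-1 is a leukaemic monocyte line). This gave 6 groups of 3 libraries each, 18 in all. Cytokine dose, exposure time and the number of macrophages are not given in the sources used here, nor is it stated whether the macrophages were removed before RNA was taken. Whether a group's 3 libraries derive from different cultures is not labelled, so p-values here measure the spread between these libraries, which may be technical.

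HIF is a transcription factor of an oxygen-regulated alpha subunit (HIF1A or EPAS1, also called HIF-2 alpha) and a constitutive partner, ARNT. When oxygen is present, EGLN prolyl hydroxylases mark the alpha subunit for destruction through the VHL ubiquitin ligase, so the amount of alpha subunit protein is set largely after transcription and its mRNA is not a readout of HIF activity. Stabilised HIF binds hypoxia response elements and raises glucose transporters, glycolytic enzymes, lactate export, carbonic anhydrases, mitophagy receptors and its own EGLN inhibitors. Inflammatory signalling through NF-kB is also known to act on the HIF1A gene. Podocytes are the visceral epithelial cells of the kidney's filtration barrier and draw on glycolysis for much of their energy.

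The core of the hypoxia response element is ACGTG or GCGTG. It was searched, on both strands, in the 250 bases before each RefSeq start site (build GRCh38.p14). The table matched 33 of the 37 members, with 56 start sites between them, and SLC2A3, BNIP3L, NDRG1 and HILPDA had no entry. The core was present before 38 of the 56 starts (67.9%), beside 54.0% of the starts of all genes tested and 43.2% of all starts in the table. The stricter ACGTG stood before 41.1% of the members' starts, 21.9% of the starts of genes tested and 18.5% of all. CACGTG, the E-box, contains ACGTG on both strands and so overlaps it; it stood before 14.3% of the members' starts and 8.08% of those of genes tested. By side, either core stood before 63.2% of the starts of enzymes and transporters and 77.8% of those of the remaining members. These shares count starts and not genes, so a gene with several starts weighs more. PFKM, for 1, had 7 starts, of which 1 had a core. A match of 5 letters is a description of the sequence and not a binding site. The single starts of PGAM1, PKM, SLC2A1, P4HA2 and EGLN3 had no core before them. The promoters below, all with a core, are those of 4 members. They were picked from a larger number with a single start and extreme changes in the comparisons that follow. Each is printed 5′ to 3′ on the strand of its gene, ending at the base before the start, with the core in capitals. CACGT and CACGC are the cores read from the other strand.
CA9: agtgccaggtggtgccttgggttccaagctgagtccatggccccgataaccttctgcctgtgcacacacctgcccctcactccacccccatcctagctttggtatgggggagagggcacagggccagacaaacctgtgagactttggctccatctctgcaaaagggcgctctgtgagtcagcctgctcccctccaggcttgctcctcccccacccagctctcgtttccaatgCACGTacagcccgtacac
ADM: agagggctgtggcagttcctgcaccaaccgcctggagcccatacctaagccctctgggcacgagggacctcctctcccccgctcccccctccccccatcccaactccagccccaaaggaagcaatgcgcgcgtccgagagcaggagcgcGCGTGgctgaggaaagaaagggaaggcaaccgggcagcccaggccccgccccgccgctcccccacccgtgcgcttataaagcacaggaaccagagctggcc
PFKFB4: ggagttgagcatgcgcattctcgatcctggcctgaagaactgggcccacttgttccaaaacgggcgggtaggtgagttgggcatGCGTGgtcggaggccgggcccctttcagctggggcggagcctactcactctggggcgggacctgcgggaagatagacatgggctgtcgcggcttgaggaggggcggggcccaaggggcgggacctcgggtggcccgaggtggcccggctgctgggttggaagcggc
ENO1: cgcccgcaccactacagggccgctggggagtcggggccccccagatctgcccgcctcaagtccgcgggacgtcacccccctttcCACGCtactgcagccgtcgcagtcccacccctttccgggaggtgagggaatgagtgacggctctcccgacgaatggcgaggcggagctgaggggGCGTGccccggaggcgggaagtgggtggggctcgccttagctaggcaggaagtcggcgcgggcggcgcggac

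The CA9 window spans chr9:35673678-35673927 on the forward strand, and its core begins 18 bases before the start. That of ADM is chr11:10304823-10305072, forward, with the core 101 bases before the start. PFKFB4 lies on the reverse strand, its window at chr3:48556804-48557053 and its core 166 bases before the start. ENO1 is also on the reverse strand, at chr1:8878687-8878936, and holds 2 cores, 166 and 72 bases before its start.

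Libraries held 11488204 to 21264180 counts. Of 16129 genes that passed the filter on low counts, 36 were members. EGLN3 did not pass: its level was 0 to 0.611 CPM (counts per 1000000 counts) in the 18 libraries, and it is not tested below. The podocyte identity of the line is partial at the RNA level, since WT1 had no count in either control group while SYNPO stood at 66.6 ± 3.23 CPM and PODXL at 9.76 ± 1.31 CPM (SD, n = 3) in smooth controls. Of 12 podocyte markers 8 were tested: with cytokines 4 rose and 1 fell on smooth (13.2% and 12.4% of all genes) and 2 rose and 1 fell on fractal (13.0% and 12.9%). With THP-1 4 rose and 2 fell on smooth (17.3% and 17.7%) and 4 rose and 3 fell on fractal (25.0% and 25.5%). Of the 18 libraries, 2 stood apart. In fractal THP-1 replicate 3 there were 17934 genes detected and 0.847% mitochondrial counts (next lowest: 3.86%). Smooth cytokines replicate 2 had 8.09% mitochondrial counts (next highest: 4.63%). Monocyte and macrophage markers (21 genes) summed to 69.3 ± 2.75 CPM with THP-1 on smooth (67.1 to 72.4) and 34.5 ± 3.97 CPM on fractal (31.0 to 38.8), against 3.27 to 12.1 CPM in the other 12 libraries. The 6 defining markers among them summed to at most 0.599 CPM outside the THP-1 groups and to 45.5 ± 2.07 and 17 ± 5.05 CPM with THP-1, while MRC1 and C1QB stood at 0. Of the 21 markers 11 passed the filter, and all 11 rose with THP-1 on each topography. A defining marker, so low outside the THP-1 groups, could pass only through those groups, so its rise was set beforehand. The markers' part in the members' changes with THP-1 was not tested. In such bulk libraries, fewer cells of a type and less RNA per cell cannot be told apart.

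Members differed widely in level in smooth controls. Per kilobase of exonic sequence (the union of the gene's exons), GAPDH led at 912 CPM per kb, followed by ENO1 at 421, PKM at 346, LDHA at 266 and TPI1 at 250.1. The 2 phosphofructokinase regulators PFKFB3 (9.25 CPM per kb) and PFKFB4 (1.71) were far lower, as was CA9 at 0.182. HIF1A stood at 140 CPM per kb and EPAS1 at 6.57. The 17 enzymes together made up 1.27 to 1.29% of all counts in these libraries.

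Cytokines against control asks how the module answered soluble inflammatory signals, on each topography. On smooth hemispheres 21 of the 36 tested members rose and none fell, beside 13.2% of all tested genes that rose and 12.4% that fell. On fractal hemispheres 26 rose and none fell, beside 13.0% and 12.9%. At an unadjusted p under 0.05, 2 members were lower on smooth and 1 on fractal, and DESeq2 called none lower on either. Without smooth cytokines replicate 2, 18 rose and none fell on smooth. Without both libraries that stood apart, 20 rose and 1 fell on smooth (HIF1A) and 30 rose and 1 fell on fractal (PFKP). The median member changed by 0.35 on the log2 scale on smooth and 0.44 on fractal, against 0.007 and 0.026 for all genes. Every adjusted p comes from the quasi-likelihood test of edgeR, adjusted by Benjamini-Hochberg over all 16129 genes, and each log2 fold change carries its standard error.

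A larger share of the other HIF targets than of the enzymes rose. All 13 rose with cytokines on fractal and 11 on smooth, CA9 being included in both counts, with medians of 0.86 and 0.61. The 17 enzymes and regulators gave 8 and 6 rises with medians of 0.32 and 0.11. NDRG1, a stress-responsive growth regulator, stood at 32.8, 34.5 and 38.4 CPM in the smooth control libraries and at 139, 117.7 and 99.1 CPM with cytokines. Every cytokine library was at least as high as 99.1 CPM, so the groups lay far apart. The rise was 1.75 ± 0.10 (adjusted p = 1.64e-12) on smooth and 1.77 ± 0.10 (2.45e-12) on fractal, where levels went from 34.0, 37.8 and 34.6 CPM to 116.9, 132.1 and 112.9 CPM. CA9, an extracellular carbonic anhydrase that buffers the acid of glycolytic cells, was sparse, with 14 counts over the 3 smooth controls and 21 over the fractal ones. It stood at 0.402, 0.470 and 0.233 CPM in fractal controls and at 1.80, 1.84 and 2.16 CPM with cytokines, a rise of 2.36 ± 0.47 (0.000439). On smooth the corresponding values were 0.118, 0.288 and 0.508 CPM, then 0.793, 0.954 and 0.765 CPM, with a rise of 1.48 ± 0.52 (0.0353) that missed the threshold in 8 of 13 alternative settings. Its groups did not overlap on either topography. Being so low in every control library, CA9 could pass the filter only through treated groups, so a rise over control was set beforehand. With no filter, its cytokine call was kept on fractal and lost on smooth.

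Among the remaining targets, ADM, which encodes the vasodilator peptide adrenomedullin, rose by 0.89 ± 0.14 on smooth and 1.23 ± 0.15 on fractal. The carbonic anhydrase CA12 rose by 1.18 ± 0.12 and 0.68 ± 0.11, and the lipid droplet protein HILPDA by 0.91 ± 0.17 and 1.03 ± 0.17. BNIP3 and BNIP3L, receptors for the removal of mitochondria, rose by 0.29 and 0.49 on smooth and by 0.56 and 0.65 on fractal. Both catalytic subunits of collagen prolyl hydroxylase rose, P4HA1 by 0.28 and 0.44 and P4HA2 by 0.45 and 0.24. The histone demethylase KDM3A rose by 0.56 and 0.85, and MXI1, an antagonist of MYC, by 0.62 and 0.91. DDIT4, an inhibitor of mTORC1, and ANKRD37 passed the threshold on fractal (0.96 ± 0.18 and 0.86 ± 0.30) and had values of 0.20 ± 0.18 and 0.61 ± 0.31 on smooth. EGLN1, the main oxygen-sensing hydroxylase and itself a HIF target, rose by 0.46 and 0.38.

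Within glycolysis the rise was largest in PFKFB4, a bifunctional enzyme that sets the level of the allosteric activator of phosphofructokinase. It stood at 11.5, 9.96 and 9.93 CPM in smooth controls and at 44.8, 28.4 and 35.7 CPM with cytokines, and the lowest treated library, replicate 2, was still well above every control. The change was 1.79 ± 0.15 (1.58e-09) on smooth and 1.55 ± 0.15 (1.42e-08) on fractal, where 12.9, 14.7 and 14.8 CPM became 38.7, 43.3 and 41.9 CPM. The aldolase ALDOC rose by 1.34 ± 0.19 on smooth, from 11.1, 7.83 and 9.28 CPM to 31.8, 16.9 and 22.5 CPM. On fractal it rose by 1.14 ± 0.19, from 10.6, 11.9 and 13.7 CPM to 22.3, 28.6 and 28.7 CPM. Its groups did not overlap on either topography, though the 3 treated smooth libraries were widely spread. LDHA, which turns pyruvate into lactate, rose by 0.45 and 0.38, PFKL by 0.41 and 0.46 and GPI by 0.28 and 0.32. PFKFB3 passed on smooth (0.91 ± 0.15) and had 0.38 ± 0.15 (0.0616) on fractal, while GAPDH (0.33 ± 0.09), PGK1 (0.27 ± 0.07) and ENO2 (0.45 ± 0.09) passed on fractal.

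On smooth GAPDH, ENO1, PGK1, PGAM1, PKM, PFKP and TPI1 had log2 changes between -0.01 and 0.11, none past the threshold. HK2 (-0.25 ± 0.12, groups not overlapping) and PFKM (-0.08 ± 0.12) did not pass there either. On fractal PFKP, PFKM, PGAM1, HK2, PKM, ENO1 and TPI1 had changes between -0.20 and 0.27, none past the threshold. The enzymes' joint share of counts was 1.32 to 1.38% with cytokines on smooth and 1.42 to 1.56% on fractal, against 1.27 to 1.29% and 1.32 to 1.33% in the controls. ALDOA is read with caution: it stood at only 8.27 ± 1.01 CPM in smooth controls, and 42.3% of its exonic bases are shared with another annotated gene on the same strand. All 3 transporters passed on fractal. SLC16A3, the lactate exporter, rose from 305.5, 312.6 and 320.9 CPM to 527.0, 529.4 and 552.7 CPM on smooth (0.78 ± 0.08, 2.07e-08) and from 397.4, 392.7 and 388.0 CPM to 603.8, 667.9 and 526.8 CPM on fractal (0.61 ± 0.08). No treated library overlapped a control. The glucose transporter SLC2A1 rose by 0.29 and 0.25, and SLC2A3 by 0.31 ± 0.09 on fractal, with 0.15 ± 0.09 on smooth.

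**Figure D1:**
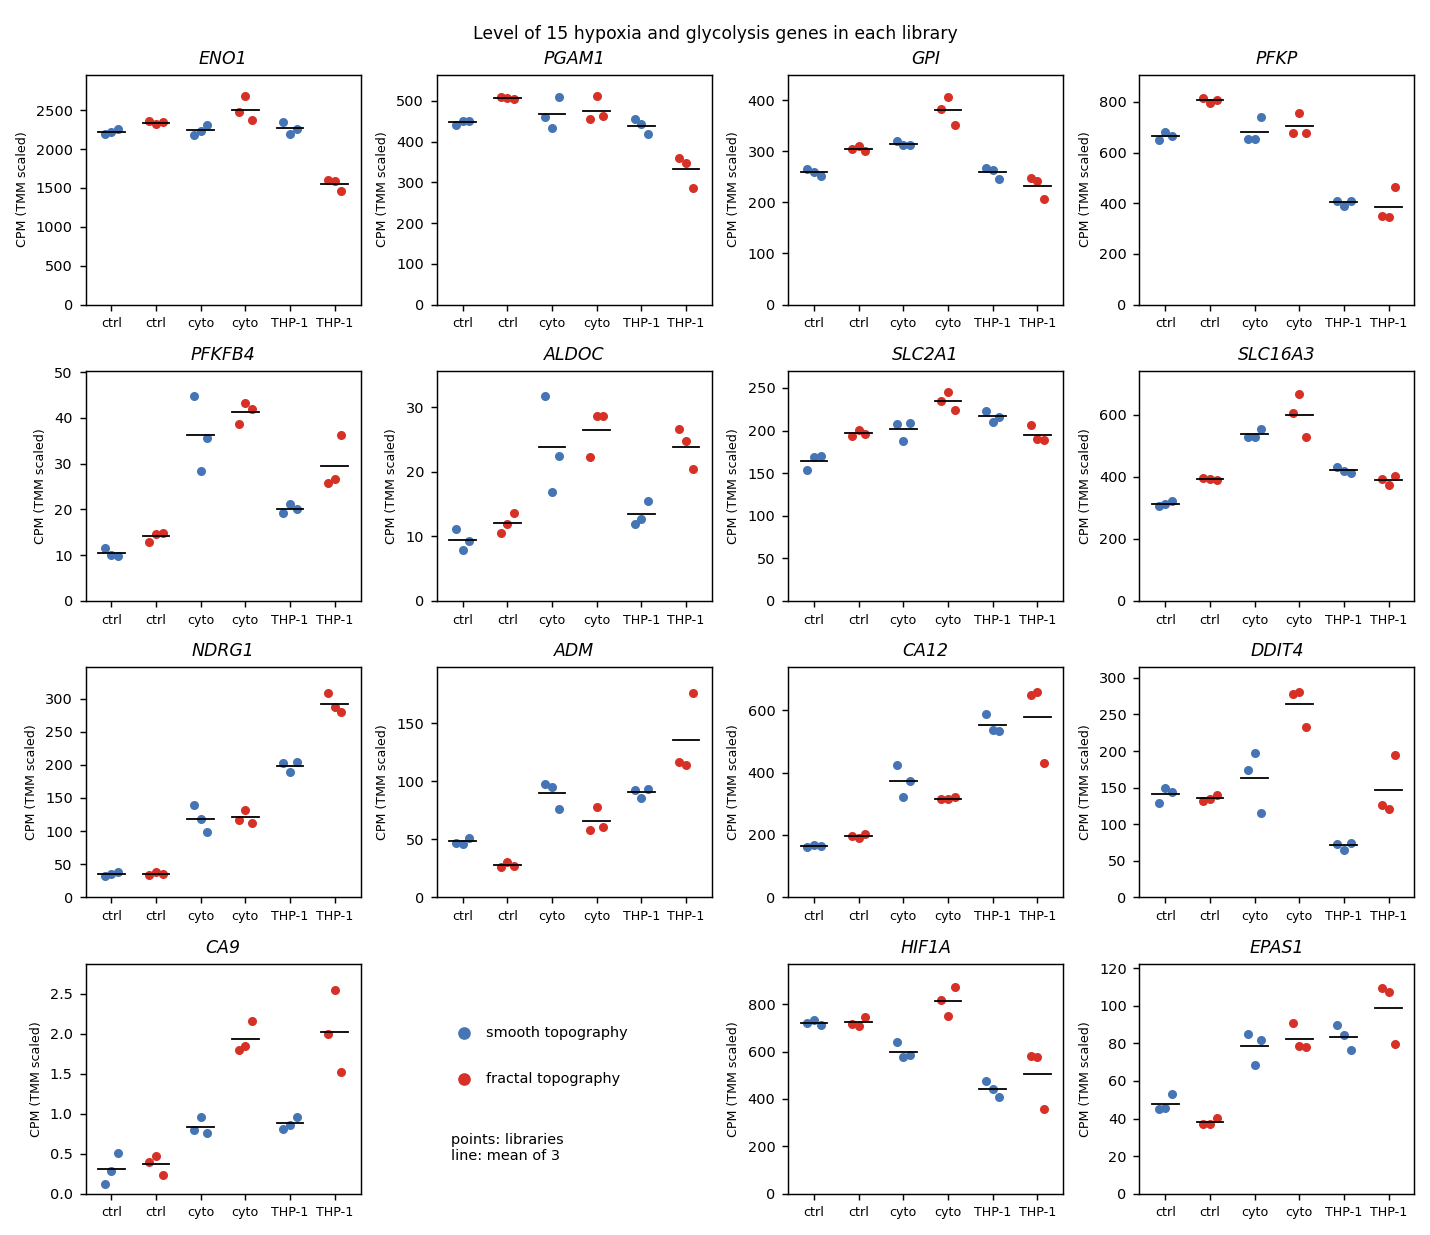
Level of 15 members in each library, in CPM with TMM scaling (vertical axes start at 0), for control, cytokine and THP-1 groups on smooth (blue) and fractal (red) topography; points are libraries and lines are means of 3. ENO1 and PGAM1 are lowest in the 3 fractal THP-1 libraries, where NDRG1 is highest.

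With macrophages members moved in both directions, the falls at about the share seen over all genes. On smooth hemispheres 15 of 36 members rose with THP-1 and 7 fell, beside 17.3% and 17.7% of all genes. On fractal hemispheres 16 rose and 9 fell, beside 25.0% and 25.5%. Without fractal THP-1 replicate 3 the fractal counts were 15 and 12. The members' median change was 0.07 on smooth and 0.19 on fractal (all genes 0.015 and 0.041). The roles parted on fractal: of the 17 enzymes and regulators 5 rose and 7 fell, while of the 13 other HIF targets 9 rose and 1 fell, with medians of 0.05 and 0.70. On smooth the enzymes gave 5 rises and 3 falls and the targets 7 and 3, with medians of -0.03 and 0.42.

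NDRG1 showed the largest rise of any member in either THP-1 comparison. Smooth THP-1 libraries stood at 202.8, 189.4 and 203.6 CPM and fractal ones at 307.6, 287.5 and 279.3 CPM. These exceeded every control and every cytokine library, and the fractal libraries exceeded all the smooth ones. The change from control was 2.50 ± 0.10 (3.47e-15) on smooth and 3.04 ± 0.10 (2.95e-17) on fractal. CA12 rose by 1.75 ± 0.12 and 1.55 ± 0.12, and CA9 by 1.55 ± 0.51 and 2.43 ± 0.47. CA9 levels were 0.815, 0.855 and 0.963 CPM on smooth and 2.00, 2.54 and 1.52 CPM on fractal, with no overlap with the controls. CA9 passed the filter only through treated groups, so its rise over control, included in the counts of rises, was set beforehand. ADM stood at 92.4, 85.2 and 93.4 CPM on smooth and 116.9, 113.9 and 175.8 CPM on fractal. Its highest library was fractal replicate 3, and the rise on fractal was 2.28 ± 0.15 with all libraries and 2.04 without that one.

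HILPDA, MXI1 and KDM3A also rose on both topographies, by 0.68, 0.67 and 0.42 on smooth and 1.27, 1.26 and 0.59 on fractal. BNIP3L rose on fractal by 0.42 ± 0.08 and had 0.06 ± 0.08 on smooth. BNIP3 passed on fractal (0.22 ± 0.09, 0.0415) but not without replicate 3 (0.14, 0.128). Both collagen prolyl hydroxylase subunits fell on smooth, P4HA1 by 0.41 and P4HA2 by 0.48 on the log2 scale. P4HA2 also fell on fractal by 0.42, whereas P4HA1 there had -0.09 ± 0.08. DDIT4 was the target with the largest fall: its smooth level dropped from 128.6, 150 and 144.6 CPM to 72.9, 65.2 and 74.6 CPM, with no overlap and a change of -0.99 ± 0.18 (0.000323). On fractal it went from 132.0, 134.2 and 139.9 CPM to 125.9, 120.4 and 195.2 CPM. There the groups overlapped, with replicate 3 above all controls and the other two below them, and the change was 0.12 ± 0.18 (0.609).

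Among the enzymes, the platelet isoform of phosphofructokinase, PFKP, gave the largest fall. It dropped from 650.9, 682.8 and 663.9 CPM to 409.3, 390.3 and 410.0 CPM on smooth and from 817.5, 796.6 and 806.6 CPM to 350.8, 347.3 and 463.5 CPM on fractal. All 6 THP-1 libraries lay below all 6 controls, with changes of -0.72 ± 0.09 (7.55e-07) and -1.06 ± 0.09 (5.92e-10). The liver isoform PFKL rose instead, by 0.46 and 0.81, and PFKM did not pass on either topography. PGK1 fell by 0.27 and 0.35, and LDHA by 0.19 and 0.36, though on smooth LDHA lost the threshold in 9 of 13 alternative settings.

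ENO1 and PGAM1, the consecutive enzymes that make phosphoenolpyruvate, fell on fractal. ENO1 stood at 2360.4, 2321 and 2343 CPM in fractal controls and at 1606, 1589.6 and 1459 CPM with THP-1. The groups were far apart, and the fall was 0.59 on the log2 scale (SE 0.07, adjusted p = 1.64e-07). On smooth ENO1 stood at 2192, 2222 and 2257 CPM in controls and at 2353, 2197 and 2259 CPM with THP-1, overlapping levels with a change of 0.03 ± 0.07. PGAM1 gave a similar pair of values, with 510.9, 506.5 and 504.7 CPM falling to 360.8, 348.6 and 287.1 CPM on fractal (-0.61 ± 0.08, 1.13e-06). Its smooth levels of 441.5, 450.3 and 450.9 CPM and then 455.7, 443.3 and 419.2 CPM overlapped (-0.03 ± 0.08). GPI and GAPDH also fell on fractal, by 0.39 and 0.42, where smooth gave 0.00 ± 0.08 and -0.24 ± 0.09 (0.0516).

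Not every glycolytic gene followed. ENO2, the neuronal enolase isoform, rose by 0.50 ± 0.09 on smooth and 0.91 ± 0.09 on fractal, opposite to ENO1 on fractal. PFKFB4 rose by 0.94 ± 0.15 and 1.06 ± 0.15, with 19.2, 21.1 and 20.0 CPM on smooth and 25.7, 26.7 and 36.3 CPM on fractal, all above the controls. ALDOC rose by 0.51 ± 0.20 and 0.99 ± 0.19, reaching 12, 12.7 and 15.5 CPM on smooth and 26.6, 24.8 and 20.5 CPM on fractal. PFKFB3 rose on fractal by 0.69 ± 0.15, or 0.41 without fractal replicate 3, and PKM rose on smooth by 0.28 ± 0.10, a call lost when any one of the 6 libraries was left out. SLC16A3 and SLC2A1 rose on smooth (0.43 ± 0.08 and 0.40 ± 0.07) and each stood at -0.01 on fractal. SLC2A3 rose on fractal by 0.45 ± 0.09, to 69.1, 62.7 and 66.5 CPM. Without replicate 3, HK2 (-0.47), PFKM (-0.19) and TPI1 (-0.21) also passed as lower with THP-1 on fractal, where the values with all 3 libraries were -0.23, 0.07 and 0.05 and none passed.

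**Figure D2:**
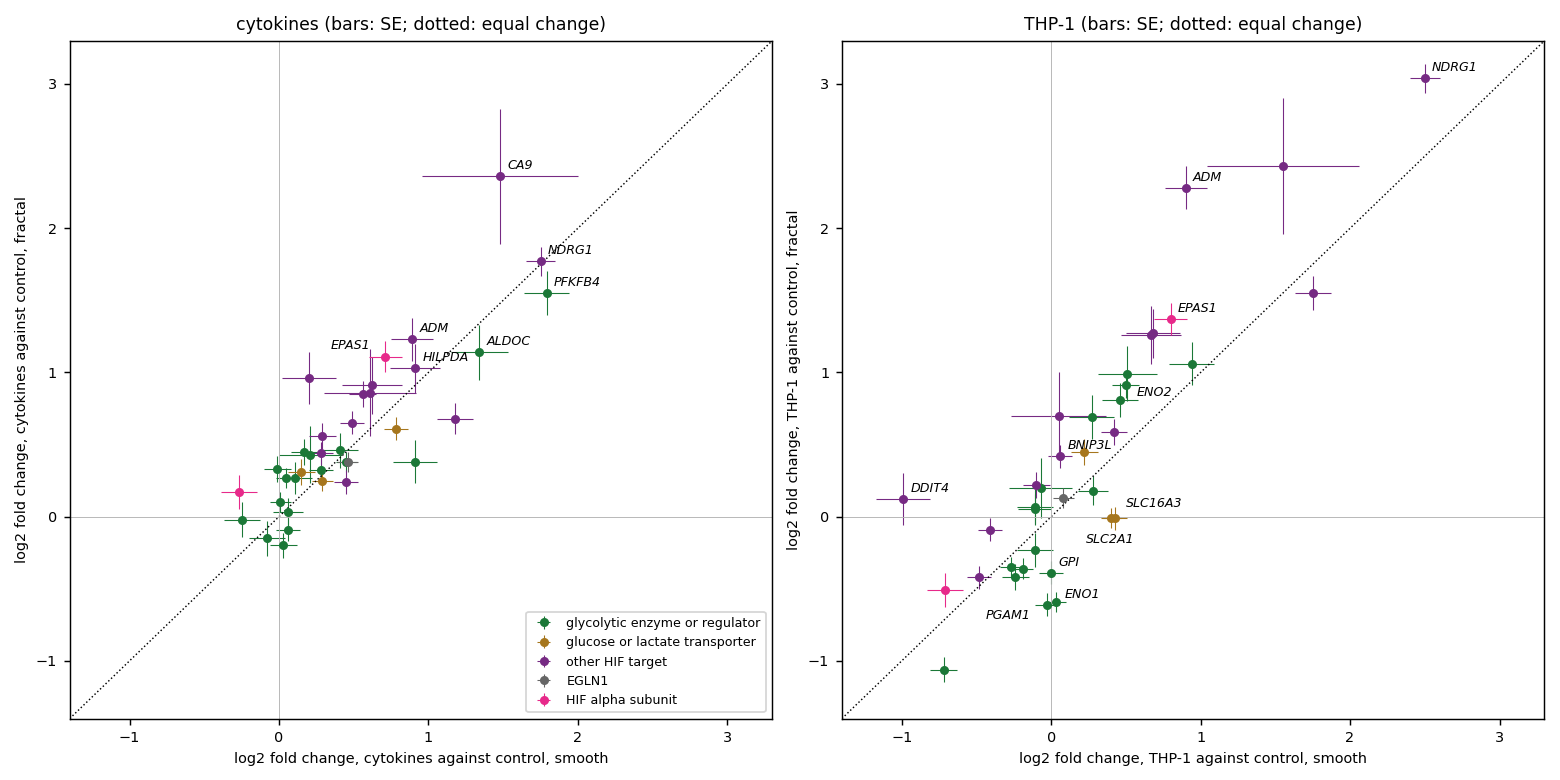
Log2 fold change against control on fractal (vertical) plotted against that on smooth (horizontal) for the 36 tested members, with cytokines on the left and THP-1 on the right; bars are standard errors, the dotted line marks equal change, and colour gives the role. Named in the right panel are the 11 members whose THP-1 effect differed between topographies, and in the left panel those with a log2 change over 1 on fractal; with THP-1, ENO1, PGAM1 and GPI lie below 0 on fractal and near 0 on smooth.

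The direct comparison of topographies asks whether these genes differed between the surfaces themselves. In untreated cells 2 of 36 differed, 1 higher on fractal and 1 lower, beside 0.651% and 1.12% of all genes. The 1 higher member was SLC16A3, at 397.4, 392.7 and 388.0 CPM on fractal against 305.5, 312.6 and 320.9 CPM on smooth, without overlap (0.33 ± 0.08, 0.0201). It lost the threshold when any one of the 6 libraries was left out. The 1 lower was ADM, at 26.5, 30.4 and 26.8 CPM on fractal against 47.1, 46.3 and 51.3 CPM on smooth (-0.79 ± 0.15, 0.00508), again without overlap. Enzymes gave no call between control topographies (4 at an unadjusted p under 0.05, all higher on fractal). The 2 libraries that stood apart are in neither group but enter the estimate of spread; with both left out, 8 members were higher and 2 lower, and a fit to these 6 libraries alone called 14.

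With cytokines 5 members were higher on fractal and none lower, beside 1.72% and 2.74% of all genes. At an unadjusted p under 0.05, 2 were lower, and DESeq2 called 1 lower. The 5 were SLC2A3 (0.41 ± 0.09), HIF1A (0.44 ± 0.12), DDIT4 (0.70 ± 0.18), GPI (0.27 ± 0.08) and P4HA1 (0.26 ± 0.08, 0.0494), the last at 0.17 and not past the threshold without the 2 libraries that stood apart. SLC2A3, the high-affinity glucose transporter, stood at 61.2, 59.8 and 58.3 CPM on fractal and 47.0, 49.0 and 38.7 CPM on smooth. DDIT4 stood at 277.8, 280.3 and 232.9 CPM on fractal and 174.4, 197.3 and 115.9 CPM on smooth. Neither gene's groups overlapped. Leaving out any single library of these 2 groups left 1 to 3 of the members past the threshold, and leaving out both libraries that stood apart gave 7 higher and 3 lower.

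With THP-1 the topographies differed in 16 members, 14 higher on fractal and 2 lower, beside 8.25% and 11.7% of all genes. Of the 13 other HIF targets 9 were higher and none lower (none lower at an unadjusted p under 0.05), with a median of 0.55 against -0.004 for all genes. DDIT4 had 1.05 ± 0.18 (0.000438), HILPDA 0.69, ADM 0.58, MXI1 0.56 and NDRG1 0.55. Without fractal THP-1 replicate 3 these were 0.80, 0.56, 0.35, 0.79 and 0.58, all past the threshold. ADM missed it in a fit to these 2 groups alone (adjusted p = 0.0512), and MXI1, whose groups overlapped, in 7 of 13 alternative settings. CA9 had 1.20 ± 0.43 (0.0493), which missed the threshold in 8 of 13 alternative settings. DDIT4 and CA9 share 41.2% and 38.5% of their exonic bases with a gene on the other strand, and strand was not kept. Among the enzymes ALDOC (0.84 ± 0.19), PFKFB3 (0.63 ± 0.15), PFKFB4 (0.55 ± 0.14) and ENO2 (0.34 ± 0.09) were higher on fractal. Without fractal THP-1 replicate 3 PFKFB3 had 0.35, and in a fit to these 2 groups alone PFKFB3 and PFKFB4 missed the threshold (adjusted p = 0.0615 and 0.0574). ENO1 (-0.55 ± 0.07) and PGAM1 (-0.40 ± 0.08) were the 2 lower members. The macrophage markers' sum differed between the same groups, 69.3 CPM on smooth and 34.5 CPM on fractal, with 4 of the 11 tested markers lower on fractal and none higher. Without fractal THP-1 replicate 3, 17 members were higher and 5 lower, HK2, PFKP and PKM joining the lower ones.

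**Figure D3:**
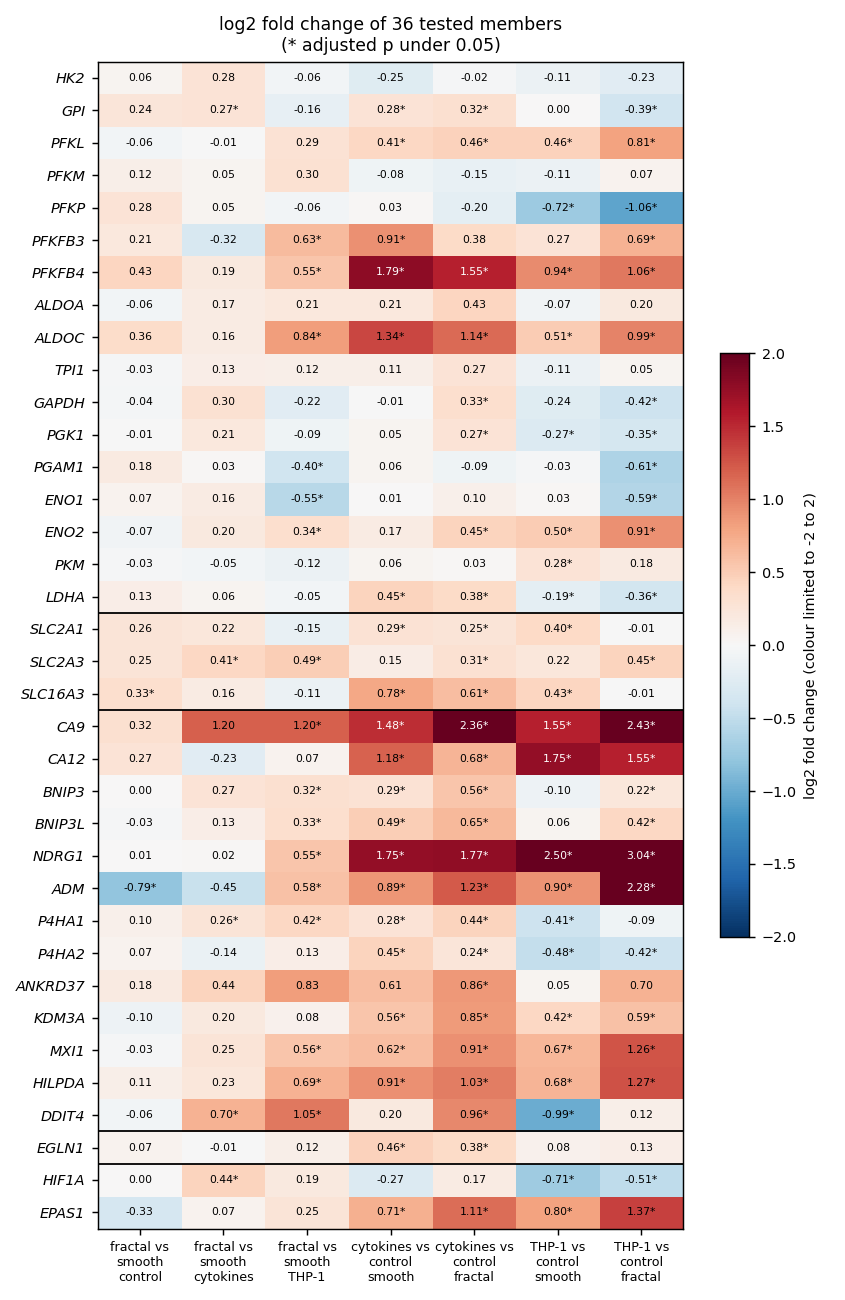
Log2 fold change of each tested member (rows, ordered by role) in the 7 two-group comparisons (columns), with the value printed in each cell and an asterisk where the adjusted p was under 0.05. The cytokine columns hold no called fall, while both signs appear among the enzymes in the THP-1 columns.

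Interaction terms then tested whether the effect of a treatment differed between topographies. For cytokines no member passed by edgeR's test, beside 1.28% of all genes higher and 1.43% lower. DESeq2 called 1 member, 10 had an unadjusted p under 0.05, and 7 passed without the 2 libraries that stood apart. For THP-1 11 members passed, 6 with a positive term and 5 with a negative one, beside 5.35% and 7.88% of all genes. These shares are 863 and 1271 genes, or 1077 and 1014 with upper-quartile scaling. A positive term means a log2 change on fractal above that on smooth, whichever of the changes is larger in size. The enzymes' median interaction was -0.08 and that of the other HIF targets 0.54, against 0.003 for all genes.

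The 5 negative terms were all glycolytic enzymes or transporters. ENO1 had -0.62 ± 0.10 (9.93e-05), PGAM1 -0.58 ± 0.12 (0.00117), SLC16A3 -0.44 ± 0.11 (0.0066), SLC2A1 -0.41 ± 0.10 (0.00695) and GPI -0.40 ± 0.11 (0.0145). Each of the 5 kept its call in all 19 alternative settings. The 6 positive terms belonged to ADM (1.37 ± 0.20, 6.05e-05), DDIT4 (1.11 ± 0.25, 0.00644), EPAS1 (0.57 ± 0.16, 0.0158), NDRG1 (0.54 ± 0.14, 0.0102), ENO2 (0.41 ± 0.12, 0.0272) and BNIP3L (0.36 ± 0.12, 0.0375). For ADM the control levels differ, so its term joins a lower start on fractal to a higher end. Control differences also enter other terms. Fractal against smooth in controls was 0.33 for SLC16A3 (called), 0.26 for SLC2A1, 0.24 for GPI and -0.33 for EPAS1. With THP-1 these differences were -0.11, -0.15, -0.16 and 0.25, none past the threshold. For ENO1, PGAM1, DDIT4, NDRG1, ENO2 and BNIP3L the control difference lay between -0.07 and 0.18. BNIP3L lost the threshold in 11 of 19 alternatives, ENO2 in 6 and EPAS1 in 2, while ADM, DDIT4 and NDRG1 kept it in all. Leaving out fractal THP-1 replicate 3 gave 17 calls, with HIF1A (0.38), MXI1 (0.82) and P4HA1 (0.32) added to the positive terms and PFKP (-0.49), HK2 (-0.36) and PKM (-0.31) to the negative ones.

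The HIF alpha transcripts moved in opposite directions with THP-1. HIF1A fell from 719.5, 731.8 and 712.2 CPM to 476.9, 441.7 and 408.4 CPM on smooth (-0.71 ± 0.12, 6.58e-05) and from 717.2, 708.2 and 743.9 CPM to 582.9, 575.7 and 359.6 CPM on fractal (-0.51 ± 0.12, 0.001). The groups did not overlap on either surface, and fractal replicate 3 was the lowest library of all, without which the fractal change was -0.33. EPAS1 rose from 45.0, 45.7 and 53.2 CPM to 89.7, 84.3 and 76.6 CPM on smooth (0.80 ± 0.11, 3.49e-06) and from 37.1, 37.2 and 40.3 CPM to 109.6, 107.2 and 79.6 CPM on fractal (1.37 ± 0.11, 2.5e-10). Every treated library lay above every control. Cytokines raised EPAS1 by 0.71 ± 0.11 and 1.11 ± 0.11, to 85.0, 68.6 and 81.9 CPM on smooth and 90.9, 78.3 and 77.8 CPM on fractal. HIF1A with cytokines stood at 638.6, 575.7 and 585.7 CPM on smooth (-0.27 ± 0.12, 0.112) and 816.3, 751.8 and 873.1 CPM on fractal (0.17 ± 0.12, 0.332). Neither change passed, and between topographies HIF1A was higher on fractal under cytokines by 0.44 ± 0.12 (0.0337). That difference missed the threshold in 5 of 13 alternative settings, each leaving out 1 library.

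The ratio of HIF1A to EPAS1, in counts per exonic length, shifted toward EPAS1. It was 21.5 ± 2.14 in smooth and 26.8 ± 0.666 in fractal controls (SD, n = 3), 10.9 ± 0.917 and 14.1 ± 1.65 with cytokines, and 7.51 ± 0.070 and 7.19 ± 0.674 with THP-1. The range with THP-1 (6.41 to 7.61) lay below that with cytokines (10.1 to 15.9), and both lay below the controls (19.0 to 27.4). HIF1A remained the more abundant transcript per length in every library.

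**Figure D4:**
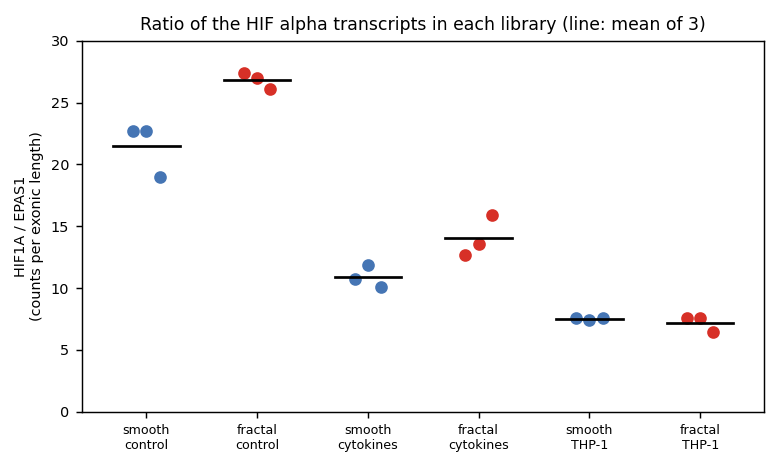
Ratio of HIF1A to EPAS1 in each library, in counts per exonic length (axis from 0), by group; points are libraries and lines means of 3. Controls lie between 19.0 and 27.4, cytokine libraries between 10.1 and 15.9 and THP-1 libraries between 6.41 and 7.61.

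Among 10 further genes of the HIF machinery, all tested, 1 fell with cytokines on smooth and 1 rose and 1 fell on fractal, beside 12.4% of all genes that fell on smooth and 13.0% and 12.9% that rose and fell on fractal. ELOC, the elongin C subunit of the VHL ligase, was the one that fell, by 0.33 and 0.29, and HIF3A, the third alpha subunit, rose on fractal by 1.78. With THP-1, 3 rose and 2 fell on smooth (17.3% and 17.7% of all genes) and 3 rose and 3 fell on fractal (25.0% and 25.5%). VHL rose by 0.33 and 0.44, the ARNT homologue ARNT2 by 0.55 and 0.67, and the hydroxylase EGLN2 by 0.74 and 1.19. ELOC fell by 0.46 and 0.80, RBX1 by 0.39 and 0.44, and the scaffold CUL2 fell on fractal by 1.04.

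The remaining glycolysis genes were a list of 18, of which 10 passed the filter. With cytokines 1 rose and 1 fell on smooth (13.2% and 12.4% of all genes) and 1 rose and 2 fell on fractal (13.0% and 12.9%), with medians of -0.04 and 0.06. PGM1, which links glycogen to glycolysis, was the one that rose (0.87 and 0.73). LDHB, the lactate dehydrogenase subunit that favours pyruvate, fell with cytokines (-0.58 and -0.80) and with THP-1 (-0.91 and -1.39). With THP-1 none rose and 2 fell on smooth (17.3% and 17.7% of all genes), and 2 rose and 4 fell on fractal (25.0% and 25.5%); by an unadjusted p under 0.05, 1 was higher on smooth. The monocarboxylate transporter SLC16A1 fell by 0.91 and 0.56 and the hexokinase HK1 by 0.49 on fractal, where HKDC1, a hexokinase-like gene, rose by 2.39 and PGM1 by 0.97.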

How the data were processed

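The deposited table holds raw counts made by the authors, whole numbers for 58735 genes by Ensembl identifier in 18 libraries, with no normalization. RNA was selected by poly-T and sequenced as unstranded pairs, per the labels' protocols. CASAVA, HISAT2 2.0.5, featureCounts 1.5.0-p3 and build GRCh38 are named, with no role, per the submitters' processing notes; the annotation is not given in the sources used here. GENCODE 29 held all 58735 identifiers and gave positions and exonic lengths. Because strand was not kept, reads of a member and of a gene overlapping it on the other strand cannot be told apart. Such overlap concerned 21 members, and over 10% of the exonic bases in 6 (CA9 38.5%, ANKRD37 35.2%, DDIT4 41.2%, GAPDH 14.2%, ALDOA 13.3%, ALDOC 10.1%).

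Groups came from the labels. In edgeR 4.0.16 (R 4.3.3), libraries were scaled by TMM, filterByExpr (min.count 10, min.total.count 15) kept 16129 genes, and all 18 libraries entered 1 quasi-likelihood model of 6 group means, whose biological coefficient of variation was 12.2% on 12 residual degrees of freedom. The 7 comparisons of 2 groups and the 2 interactions were each adjusted by Benjamini-Hochberg over all genes at 0.05. The standard error is the absolute log2 fold change divided by the square root of F. Levels are CPM with TMM scaling, and n is 3 throughout. Within groups, no 2 libraries agreed within sampling noise (lowest chi-square per degree of freedom 2.52). The scripts were tested on simulated data. Alternatives were RLE and upper-quartile scaling, no filter, DESeq2 1.42.0, only the groups compared, the replicate number as a block, leaving out the 2 libraries that stood apart, and leaving out each library in turn.

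The members, roles and lists were chosen with earlier results of these data known. Values in every library are given for the largest called rise and fall in each comparison, separately for enzymes with transporters and for the other members, for up to 3 members by adjusted p in each interaction, and for HIF1A and EPAS1. From the other lists up to 3 genes in each direction by fold were eligible. Values per library of other genes were chosen after they were seen. Promoter sequences are from RefSeq, and figures were drawn with matplotlib 3.10.9.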

Additional observations from a re-analysis of the deposited data

Results flagged for a closer look

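The effect of THP-1 macrophages on 11 members differed between topographies by the interaction test. Each value is the log2 change on fractal minus that on smooth. It was negative for ENO1 (-0.62), PGAM1 (-0.58), SLC16A3 (-0.44), SLC2A1 (-0.41) and GPI (-0.40). ENO1, PGAM1 and GPI fell on fractal and had changes of 0.03, -0.03 and 0.00 on smooth, while SLC16A3 and SLC2A1 rose on smooth and had -0.01 each on fractal. The value was positive for ADM (1.37), DDIT4 (1.11), EPAS1 (0.57), NDRG1 (0.54), ENO2 (0.41) and BNIP3L (0.36). ADM, EPAS1, NDRG1 and ENO2 rose on both topographies and further on fractal, BNIP3L passed on fractal, and DDIT4 fell on smooth and had 0.12 on fractal. The summed macrophage markers were 69.3 CPM in smooth and 34.5 CPM in fractal THP-1 libraries, and their part in these differences was not tested. ENO1 stayed past the threshold without fractal THP-1 replicate 3 (-0.58, adjusted p = 3.65e-07 by edgeR's quasi-likelihood test), as did ADM (1.14, 2.04e-07).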

How the results depend on the processing

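Of 128 calls on members, 94 kept their direction and their side of the threshold in every alternative, and none reversed. The replicate number as a block left 3 members called for fractal against smooth under cytokines, where 5 were called without it, and moved no other count by over 1.5 times. Same-numbered libraries showed no strong pairing: 45 such pairs correlated between -0.067 and 0.064. Their median was 0.009, against -0.0035 for different numbers, and 9 of 18 libraries correlated best with their own number. Correlations this small do not settle whether the numbers mark pairs. For fractal against smooth in controls (2 members) DESeq2 called 4, the groups compared alone 14, and the fit without the 2 libraries that stood apart 10; leaving out 1 library gave 1 each time. Under cytokines (5 members) DESeq2 called 10 and the fit without the 2 libraries 10, with 1 to 3 when 1 library was left out. With THP-1 (16 members) the groups compared alone gave 10. The interaction with cytokines (0 members) gave 3 without the filter, 1 by DESeq2, 5 in the groups compared alone, 7 without the 2 libraries and 0 to 1 when 1 was left out. The interaction with THP-1 (11 members) gave 18 without the 2 libraries and 8 to 17 when 1 was left out, 17 without fractal THP-1 replicate 3. PFKM and TPI1 with THP-1 on fractal turned from 0.07 and 0.05, not called, to -0.19 and -0.21, without that library and without both, and leaving out 1 fractal THP-1 library gave -0.19 to 0.18 and -0.21 to 0.15. Other calls lost without 1 library were these. Leaving out fractal cytokines replicate 2 lost GAPDH, GPI, PFKL, PGK1, SLC2A1, SLC2A3, ANKRD37 and P4HA2 for cytokines on fractal, of which SLC2A1, SLC2A3, ANKRD37 and P4HA2 were also lost without other libraries. With cytokines on smooth, BNIP3, MXI1, CA9, P4HA1 and PFKL were lost without 1 or more libraries of the pair of groups, BNIP3, MXI1 and CA9 among others without smooth cytokines replicate 2. The same held with THP-1 on smooth for ALDOC, CA9, LDHA, MXI1 and PKM, on fractal for BNIP3, and between topographies with THP-1 for CA9, MXI1 and BNIP3. The block ended the calls of DDIT4 and P4HA1 between topographies under cytokines and of CA9 and MXI1 with THP-1. Causes were not tested.

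Counts over all genes moved likewise. Between control topographies 286 genes (105 and 181 by direction) became 509 by DESeq2, 2755 in those groups alone and 1188 without the 2 libraries, and 131 to 150 when 1 was left out. Under cytokines 719 became 1561 without the 2, and with THP-1 3220 became 1412 in those groups alone. The cytokine interaction, 436 genes, gave 688 by DESeq2, 983 in those groups alone, 1461 without the 2 libraries and 271 to 532 when 1 was left out. The THP-1 interaction went from 2134 to 3642 without the 2 libraries and 3266 without fractal THP-1 replicate 3. Depth limited CA9, with 2 to 43 counts a library, and EGLN3, with 0 to 13.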

Other observations

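A further 30 HIF targets outside the module were all tested. This list was also chosen with earlier results known, and so lends no independent support. Cytokines raised 16 and lowered 3 on smooth (13.2% and 12.4% of all genes) and raised 26 and lowered 1 on fractal (13.0% and 12.9%), by edgeR's quasi-likelihood test. ANGPTL4, an inhibitor of lipoprotein lipase, rose by 3.17 on smooth and 3.15 on fractal, and STC1, a secreted glycoprotein, by 2.26 and 1.97.

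With THP-1, 11 of the 30 rose and 7 fell on smooth (17.3% and 17.7% of all genes), and 17 rose and 5 fell on fractal (25.0% and 25.5%). STC1 rose by 3.09 and 3.00 on the log2 scale. STC2 fell by 2.63 on smooth and fell by 2.72 on fractal. Between topographies under THP-1, 13 were higher on fractal and 3 lower (8.25% and 11.7%). The THP-1 interaction called 11 with a positive term and 2 with a negative one (5.35% and 7.88%). Among them were PPP1R3C, a glycogen-targeting phosphatase subunit, at 1.48 ± 0.30, WSB1 at 1.16 ± 0.15 and VEGFA, the angiogenic growth factor, at 1.10 ± 0.17. The macrophage markers differed between the same libraries, and their part in these values was not tested.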
